A study of Mus musculus with 4 samples.

Results

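The genes described here are the subunits of the AP-1 transcription factor and 2 immediate early genes that are measured beside them, Egr1 and Dusp1, in mouse dorsal skin. They were taken by gene symbol, 10 genes in all, and every probe set whose annotation names only that gene was kept. This gave 14 probe sets of the 45037 on the array outside the Affymetrix controls. Jun, Jund, Fosl1 and Fosl2 each had 2 probe sets, and Junb, Fos, Fosb, Atf3, Egr1 and Dusp1 each had 1. A probe set is a group of short probes that together report the level of a transcript, and its values below are log2 levels made with RMA, so that 1 unit is a 2-fold difference. The skin came from male C3H mice, given as 8 weeks old at the start of the experiment, whose back was shaved before treatment. The control group (arrays Control 1 and Control 2) received the vehicle, Milli-Q water, and the treated group (arrays TCQA 1 and TCQA 2) received TCQA at 1%, each on the skin every day up to day 30. Shaving was common to both groups, and all hair was plucked from the treated area before the skin was taken. Each group had 5 mice, and how many mice stand behind an array is not given in the sources used here, so p-values measure the spread between arrays, which may be technical. TCQA, or 3,4,5-tri-O-caffeoylquinic acid, is a plant polyphenol. The question for these genes was whether their transcripts differed between vehicle and TCQA after a month of treatment.

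AP-1 is a dimer of basic leucine zipper proteins. Jun proteins (Jun, Junb, Jund) can pair with each other or with a Fos protein (Fos, Fosb, Fosl1, Fosl2), whereas Fos proteins need a Jun partner to bind DNA. Immediate early genes are transcribed within minutes of a growth factor, ultraviolet light or a wound, without new protein synthesis, and their transcripts are short-lived. In skin, AP-1 takes part in keratinocyte proliferation and differentiation and in wound repair. Mitogen-activated protein kinases (MAPKs) phosphorylate Jun and the factors that switch Fos and Egr1 on, and the phosphatase Dusp1 inactivates these kinases.

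The promoters of Jun, Fos and Dusp1 are shown because these 3 genes stand for a Jun protein, a Fos protein and a feedback inhibitor. They also hold letters of the cAMP response element (CRE), which CREB, ATF and AP-1 dimers bind. Jun and Dusp1 match the CRE-type sequence TGACNTCA, and Fos matches only the core TGACG. The sequences are the 160 bases before the RefSeq start on assembly GRCm38.p6, read 5′ to 3′ along the gene. Capitals mark matches to TGACNTCA or to the core TGACG on either strand. The Jun stretch lies at chr4:95052223-95052382 on the minus strand, that of Fos at chr12:85473730-85473889 on the plus strand and that of Dusp1 at chr17:26508473-26508632 on the minus strand.
Jun: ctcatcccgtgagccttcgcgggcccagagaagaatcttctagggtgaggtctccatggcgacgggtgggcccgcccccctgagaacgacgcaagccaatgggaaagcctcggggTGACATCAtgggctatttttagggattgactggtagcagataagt
Fos: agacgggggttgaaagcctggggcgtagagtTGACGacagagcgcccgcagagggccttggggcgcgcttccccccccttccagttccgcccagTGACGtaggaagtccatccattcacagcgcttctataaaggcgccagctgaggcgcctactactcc
Dusp1: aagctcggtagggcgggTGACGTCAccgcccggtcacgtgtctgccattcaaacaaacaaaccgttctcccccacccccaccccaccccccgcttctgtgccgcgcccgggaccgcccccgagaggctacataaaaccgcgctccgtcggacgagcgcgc

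Promoter windows of 250 bases before to 50 after the start were found for 8 of the 10 genes; those of Fosl1 and Egr1 were not used. TGACNTCA was present in Jun, at -45 to -38, and in Dusp1, at -143 to -136, and in 8.83% of all 32851 windows. The core TGACG, which overlaps TGACNTCA where N is G, was present in Junb, Fos, Fosb, Atf3 and Dusp1 and in 20.8% of all windows. The AP-1 site TGACTCA, held by 5.2% of windows, had no match in the 8 genes, and neither had the CArG box of serum response factor, held by 1.63%. These are matches of letters and not measured sites. Sequence outside the windows was not searched, so a motif without a match may lie farther from the start.

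The 4 arrays did not resemble each other equally, and this touches every value that follows. Over all probe sets the median log2 level was 2.30 for Control 1, and the other arrays had from 2.49 to 2.55. Control 1 correlated with each of the other arrays at r = 0.412 to 0.413 across probe sets, while the other 3 correlated with each other at 0.884 to 0.956; probe sets are not independent replicates. The 8 keratinocyte markers had a median log2 level of 8.23 on Control 1 against 2.20 to 2.85 elsewhere, and 7 of the 8 were more than 1 log2 unit above every other array there. The keratins that define the epidermis stood differently against the median of all probe sets on those 3 arrays. The basal pair had from 4.52 to 5.02 for Krt5 and from 2.37 to 2.86 for Krt14. The suprabasal pair had from 3.43 to 3.64 for Krt1 and from 1.93 to 2.23 for Krt10. Krt14 was thus near that median, Krt10 under it and Krt5 and Krt1 above it. Markers of skeletal muscle, which lies under mouse dorsal skin, were above every other array by that much on Control 1 for 9 of 9 genes, with a median of 11.32 against 2.15 to 3.12. For 18 of 18 ribosomal protein genes the same held, with medians of 9.55 and of 3.22 to 3.64. The count was 4 of 6 for fibroblast, 3 of 4 for adipocyte, 1 of 6 for leukocyte and 0 of 4 for endothelial markers. Over all genes, 19.9% were above every other array by that much on Control 1. Each gene was read by 1 probe set, that of the highest mean over the 4 arrays. Control 1 is part of this mean, which favours probe sets that are high there. The part of these differences between arrays in the values below was not tested. In whole skin, fewer cells of a type, less RNA per cell and a technical difference between arrays cannot be told apart.

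Across the 14 probe sets, 10 had a lower and 4 a higher mean log2 level with TCQA than with the vehicle, and no difference passed the test. The median log2 difference (TCQA minus control) was -0.51, against 0.12 over all probe sets. Control 1 held the highest of the 4 levels for 9 of the 14 probe sets and the lowest for 4, against 28.0% and 58.3% of all probe sets. Without Control 1, the differences of 13 of the 14 probe sets were smaller than 0.5 log2 units, with a median of 0.010, against -0.02 over all probe sets. Differences this small were usual on these arrays, since the 90th percentile of their size over all probe sets was 0.506.

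**Figure D1:**
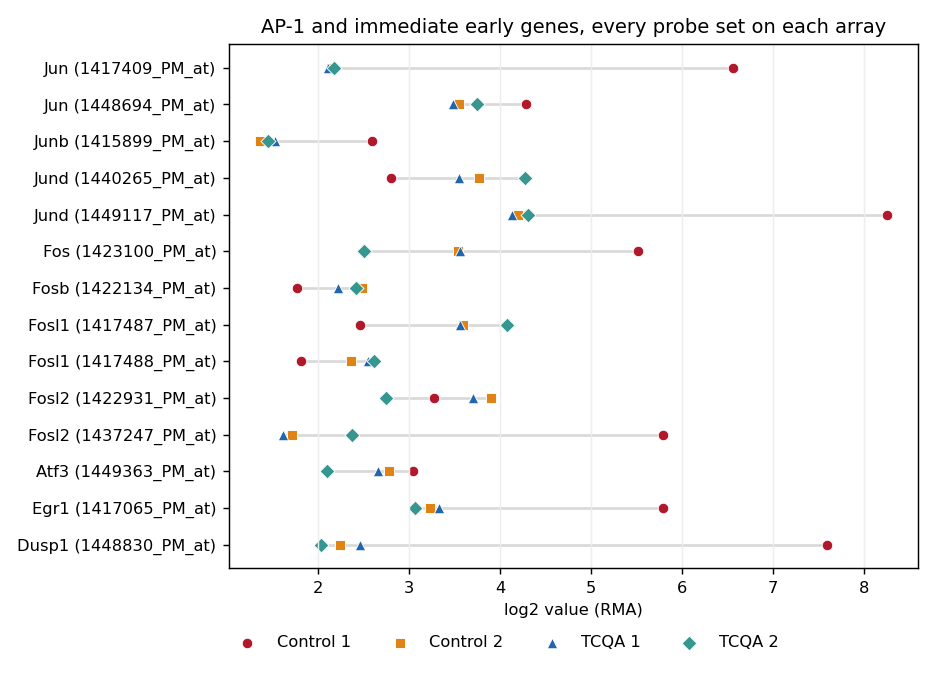
Log2 level (x axis) of each of the 14 probe sets (rows) on the 4 arrays; each symbol is 1 array and the grey line spans its range. Dusp1 is at 7.59 on Control 1, against 2.03 to 2.46 elsewhere, and Fosl1 is lowest on Control 1 with both probe sets.

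Among the Jun proteins, Jun itself, a strong activator, gave 2 unlike profiles. Its probe set 1417409_PM_at had log2 levels of 6.56 (Control 1), 2.15 (Control 2), 2.11 (TCQA 1) and 2.18 (TCQA 2). Control 1 alone was high, 21.3-fold above the mean log2 level of the other 3, which were all under the median of their arrays, where background limits such a fold, and lay within 0.068 log2 units of each other, with Control 2 inside the range of the TCQA arrays. This gave a log2 difference of -2.21 (standard error 1.50, limma adjusted p = 0.923), and of -0.002 without Control 1. The probe set 1448694_PM_at had levels of 4.28 (Control 1), 3.55 (Control 2), 3.48 (TCQA 1) and 3.74 (TCQA 2). The order of the arrays was the same, but Control 1 was only 1.62-fold above the mean of the others, and the log2 difference was -0.30 (standard error 0.41, limma adjusted p = 0.924), with 0.065 when Control 1 was left out and 0.082 after quantile normalization of all arrays. With either probe set the difference was smaller than the gap between the control arrays, which was 4.41 and 0.74.

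Junb, which can antagonise Jun, had log2 levels of 2.59 (Control 1), 1.37 (Control 2), 1.53 (TCQA 1) and 1.45 (TCQA 2). Control 1 was the highest array, though only at percentile 58.5 of its own probe sets, and Control 2 was the lowest of the 4. The arrays other than Control 1 were at percentiles 4.3 to 8.8, under their medians, where background limits such differences. The mean was 1.98 ± 0.87 (SD, n = 2) with the vehicle and 1.49 ± 0.05 (SD, n = 2) with TCQA, a log2 difference of -0.49 that was 0.12 without Control 1.

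Jund, the Jun protein that is present in most resting cells, had opposite profiles with its 2 probe sets. With 1449117_PM_at the log2 levels were 8.25 (Control 1), 4.20 (Control 2), 4.13 (TCQA 1) and 4.31 (TCQA 2), so that Control 1 was 16.4-fold above the mean of the others. With 1440265_PM_at they were 2.81 (Control 1), 3.77 (Control 2), 3.55 (TCQA 1) and 4.28 (TCQA 2). Here Control 1 was the lowest array, and with each probe set Control 2 was inside the range of the TCQA arrays. The log2 differences were -2.01 (standard error 1.39) and 0.63 (standard error 0.51), and without Control 1 they were 0.019 and 0.15.

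Fos, the prototype of the short-lived partners of Jun, was measured by 1 probe set, with log2 levels of 5.52 (Control 1), 3.53 (Control 2), 3.56 (TCQA 1) and 2.50 (TCQA 2). Control 1 was the highest and TCQA 2 the lowest, while Control 2 and TCQA 1 differed by little. The mean was 4.53 ± 1.40 (SD, n = 2) with the vehicle and 3.03 ± 0.75 (SD, n = 2) with TCQA. Its log2 difference of -1.49 (standard error 0.815, limma adjusted p = 0.923) had the smallest unadjusted p of the 14 in limma, 0.133, and was -0.50 without Control 1. Of the 3 remaining arrays, TCQA 2 was the low one.

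Fosb, whose full-length protein activates transcription like Fos, had log2 levels of 1.77 (Control 1), 2.48 (Control 2), 2.22 (TCQA 1) and 2.42 (TCQA 2). Control 1 was the lowest array and Control 2 the highest, so both TCQA arrays lay between the controls. The log2 difference was 0.19 (standard error 0.40) with all arrays and -0.16 without Control 1. All these levels were under the median of their arrays, at percentiles 29.6 to 47.3, where background limits such differences.

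Fosl1 (Fra-1) and Fosl2 (Fra-2) lack the strong activation domain of Fos and persist longer after a stimulus. Fosl1 had log2 levels of 2.46 (Control 1), 3.59 (Control 2), 3.56 (TCQA 1) and 4.08 (TCQA 2) with 1417487_PM_at. With 1417488_PM_at it had 1.81 (Control 1), 2.36 (Control 2), 2.55 (TCQA 1) and 2.61 (TCQA 2). Control 1 was the lowest and TCQA 2 the highest array with both, and with the latter probe set both TCQA arrays lay above both control arrays. The log2 differences were 0.79 (standard error 0.52) and 0.49 (standard error 0.37), and without Control 1 they were 0.22 and 0.22.

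Fosl2 again differed between its probe sets. With 1437247_PM_at the log2 levels were 5.79 (Control 1), 1.72 (Control 2), 1.62 (TCQA 1) and 2.38 (TCQA 2), with Control 1 14.8-fold above the mean of the others, which were again under the median of their arrays. With 1422931_PM_at they were 3.27 (Control 1), 3.90 (Control 2), 3.70 (TCQA 1) and 2.75 (TCQA 2), so that Control 1 lay inside the range of the other arrays and TCQA 2 was the lowest. The log2 differences were -1.76 (standard error 1.42) and -0.36 (standard error 0.50). Leaving out Control 1 gave 0.28 and -0.67, values of opposite sign, and the latter was the largest difference of any of the 14 probe sets without that array.

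Atf3, a stress-induced factor of the ATF family that can pair with Jun, had log2 levels of 3.05 (Control 1), 2.78 (Control 2), 2.66 (TCQA 1) and 2.10 (TCQA 2). Both TCQA arrays lay below both control arrays. The mean was 2.91 ± 0.19 (SD, n = 2) with the vehicle and 2.38 ± 0.40 (SD, n = 2) with TCQA, a log2 difference of -0.53 (standard error 0.38, limma adjusted p = 0.923) that was -0.40 without Control 1. The gap between both TCQA arrays, 0.56, was as wide as the difference between the groups.

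Egr1, a zinc finger factor induced with Fos through serum response factor, had log2 levels of 5.79 (Control 1), 3.23 (Control 2), 3.32 (TCQA 1) and 3.06 (TCQA 2). Control 1 alone was high, 6.02-fold above the mean of the others, while Control 2 was inside the range of the TCQA arrays. The log2 difference was -1.32 (standard error 0.92) and -0.033 without Control 1.

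Dusp1 had the largest difference of the 14 probe sets, with log2 levels of 7.59 (Control 1), 2.25 (Control 2), 2.46 (TCQA 1) and 2.03 (TCQA 2). Control 1 was 40.7-fold above the mean of the others, and since these were all under the median of their arrays the fold is limited by background too. The mean was 4.92 ± 3.78 (SD, n = 2) with the vehicle and 2.25 ± 0.30 (SD, n = 2) with TCQA, so the log2 difference of -2.67 (standard error 1.82, limma adjusted p = 0.923) was smaller than the SD of the vehicle group. Leaving out Control 1 brought the difference to 0.001.

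Of the 4 genes with 2 probe sets, Jun, Fosl1 and Fosl2 had the same sign of the log2 difference with both, although Jun did not after quantile normalization, and Jund had opposite signs. The gap between the log2 differences of a gene's probe sets was 1.90 for Jun, 2.64 for Jund, 0.29 for Fosl1 and 1.40 for Fosl2. Over all 4275 genes with exactly 2 single-gene probe sets the median gap was 0.43, its 90th percentile was 1.42 and 61.1% of genes had the same sign with both. The gaps of Jun and Jund were therefore among the wider ones, and that of Fosl1 was not. Without Control 1 the gap was 0.067 for Jun, 0.13 for Jund, 0.004 for Fosl1 and 0.95 for Fosl2, against a median of 0.27 over all such genes. Jun and Jund probe sets then differed by little, and Fosl2 kept a gap above the 90th percentile of 0.69, its probe sets parting on TCQA 2. The level itself is not compared between probe sets, since each has its own probes.

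**Figure D2:**
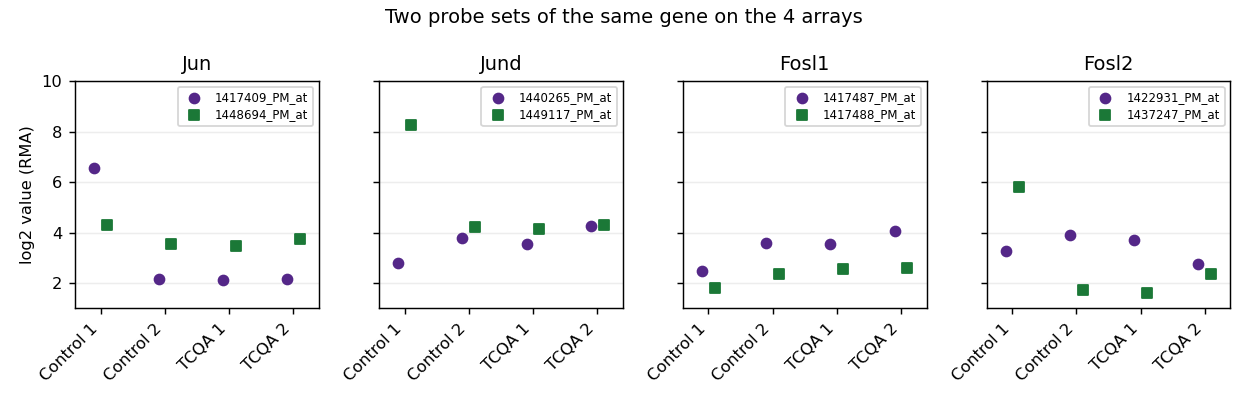
Log2 level (y axis) on the 4 arrays (x axis) of both probe sets of Jun, Jund, Fosl1 and Fosl2; each symbol is 1 probe set on 1 array. For Jund, Control 1 is the highest array of 1449117_PM_at, at 8.25, and the lowest of 1440265_PM_at, at 2.81, while both probe sets of Fosl1 are lowest on Control 1 and highest on TCQA 2.

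An adjusted p under 0.05 in limma was reached by 0 of the 14 probe sets and by 0% of all 45037, and adjusted p lay between 0.923 and 0.939. At an unadjusted p under 0.05 the count was 0 of the 14 in limma and with an unmoderated one-way analysis of variance, and 141 of all probe sets in limma. At 2-fold alone, with no p, 6 of the 14 probe sets were lower, against 11.3% of all probe sets, and 0 were higher, against 1.04%. The 6 were Jun (1417409_PM_at), Jund (1449117_PM_at), Fos, Fosl2 (1437247_PM_at), Egr1 and Dusp1, and without Control 1 none of them differed by 2-fold. A difference of at least 2-fold with an unadjusted p of at most 0.05 in limma was reached by 0 of the 14 probe sets in either direction, against 0.122% of all probe sets on the lower and 0.135% on the higher side. Both TCQA arrays lay below both control arrays for 1 probe set (Atf3), against 10.9% of all probe sets, and above them for 1 (Fosl1, 1417488_PM_at), against 17.9%. With 2 arrays a group an exact permutation test cannot go below p = 0.333, and a difference that does not pass is not shown to be absent.

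These results changed with the control array that was kept. Without Control 1, 0 of the 14 probe sets had an adjusted p under 0.05 in limma and 0 had an unadjusted p under 0.05, where 0% of all probe sets reached the former and 538 the latter. Without Control 2, so that Control 1 alone stood for the vehicle and was assumed to vary like the TCQA arrays, 7 of the 14 probe sets were lower at an adjusted p under 0.05 in limma, against 16.1% of all probe sets, and 1 was higher, against 7.34%. The lower ones were those of Jun (1417409_PM_at), Junb, Jund (1449117_PM_at), Fos, Fosl2 (1437247_PM_at), Egr1 and Dusp1, with log2 differences from -5.345 for Dusp1 to -1.105 for Junb. The higher one was Fosl1 (1417487_PM_at), at 1.35. Without Control 1 the same 8 probe sets had log2 differences from -0.50 for Fos to 0.28 for Fosl2.

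**Figure D3:**
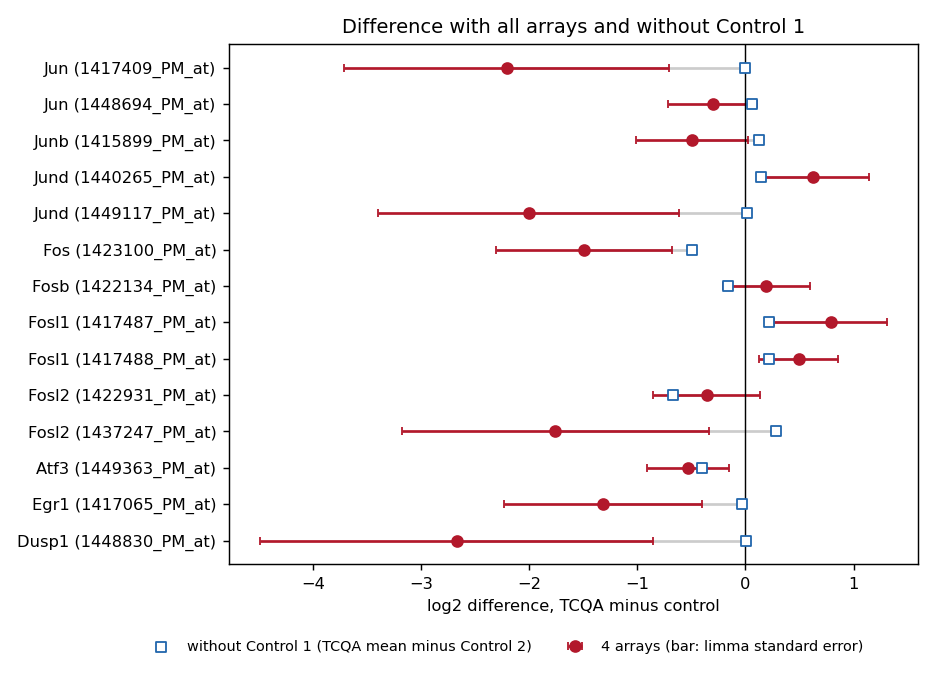
Log2 difference, TCQA minus control (x axis), of each probe set (rows) with all 4 arrays (filled circles, bars are limma standard errors) and without Control 1 (open squares). The circles of Dusp1, Jun (1417409_PM_at) and Jund (1449117_PM_at) lie between -2.67 and -2.01 and their squares lie within 0.019 of 0.

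The distance of Control 1 from the other arrays was set against that of all probe sets. Control 1 was more than 1 log2 unit above every other array for 7 of the 14 probe sets, namely those of Jun (1417409_PM_at), Junb, Jund (1449117_PM_at), Fos, Fosl2 (1437247_PM_at), Egr1 and Dusp1, and for 15.9% of all probe sets. Dusp1 had the largest distance, 5.35 above the mean of the other 3 arrays, at percentile 98.9 of all probe sets, followed by Jun (1417409_PM_at) at 4.41 and percentile 97.6. At the other end, Fosl1 (1417487_PM_at) was at -1.28 from the mean of the others, percentile 5.4, and Jund (1440265_PM_at) at -1.06, percentile 11.2. No p is given, since the genes were chosen with results of these arrays known.

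**Figure D4:**
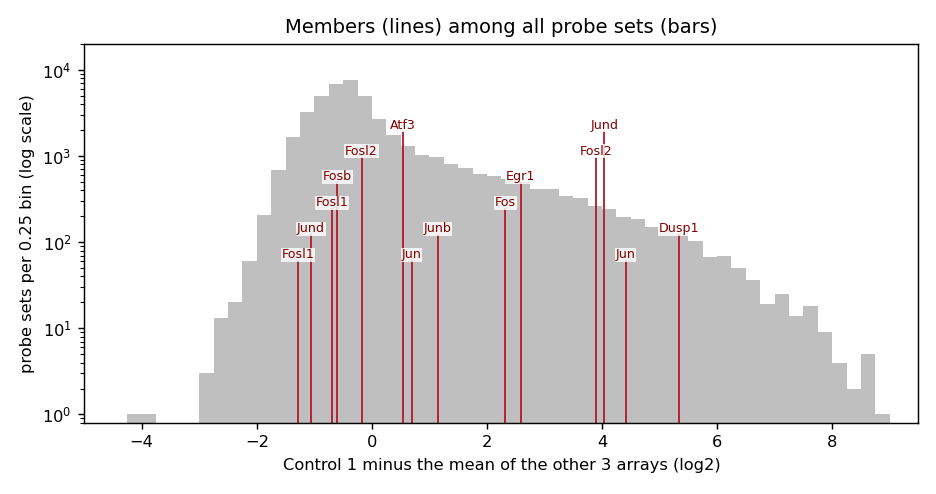
Level on Control 1 minus the mean of the other 3 arrays (x axis, log2) for all 45037 probe sets (grey bars, number per bin on a log axis) and for the 14 probe sets of the AP-1 and immediate early genes (red lines, whose heights only separate the names). The lines reach from -1.28 for Fosl1 to 5.35 for Dusp1.

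Among the other 3 arrays, Control 2 and TCQA 1 had r = 0.986 over the 14 probe sets, and TCQA 2 had 0.813 with Control 2 and 0.795 with TCQA 1. Over all probe sets Control 2 and TCQA 1 were also the closest pair, with 0.956. There TCQA 2 had 0.884 with Control 2 and 0.886 with TCQA 1, nearly the same. Fos on TCQA 2 differed from the mean of Control 2 and TCQA 1 by -1.04 log2 units (percentile 1.5 of all probe sets). Fosl2 with 1422931_PM_at had a difference of -1.06 (percentile 1.4) and Atf3 had -0.62 (percentile 8.1). In the other direction, Fosl2 with 1437247_PM_at had 0.71 (percentile 96.1), Jund with 1440265_PM_at had 0.62 (percentile 94.5) and Fosl1 with 1417487_PM_at had 0.50 (percentile 91.3). The other 8 probe sets lay between -0.32 and 0.23. For each of these 6 probe sets TCQA 1 was nearer to Control 2 than to TCQA 2. They were picked by the distance of TCQA 2 from both, so this adds no support. Control 2 lay between both TCQA arrays for 9 of the 14 probe sets, and for 38.2% of all probe sets.

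Genes around AP-1 were described with lists of other genes of the pathway, with 1 probe set per gene, that of the highest mean over the 4 arrays. This mean includes Control 1, so a probe set that is high there is picked more easily, in the lists and among all genes. Over all 17097 genes the median log2 difference was 0.08 and 43.8% of genes had a negative one. No gene of the 5 lists passed an adjusted p of 0.05 in limma, and none differed by 2-fold with an unadjusted p of at most 0.05, as 0.17% of all genes did on the lower and 0.14% on the higher side. At 2-fold alone, 14.5% of all genes were lower and 1.19% higher. Among 25 other immediate early genes, 17 had a negative and 8 a positive log2 difference, with a median of -0.57 that was 0.098 without Control 1 (16 positive and 9 negative). Control 1 was more than 1 log2 unit above every other array for 11 of the 25, and for 19.9% of all genes. At 2-fold alone 6 were lower and 1 higher. Klf4, a differentiation factor of the epidermis, had log2 levels of 7.76 (Control 1), 3.60 (Control 2), 3.18 (TCQA 1) and 2.69 (TCQA 2). Its log2 difference of -2.74 (standard error 1.43) was -0.66 without Control 1, and both TCQA arrays lay below both control arrays. Sgk1, a serum- and glucocorticoid-induced kinase, had 6.39 (Control 1), 1.28 (Control 2), 1.26 (TCQA 1) and 1.63 (TCQA 2), a log2 difference of -2.39 that was 0.16 without Control 1. In this list both TCQA arrays lay below both controls for 6 genes and above them for 5, against 13.6% and 16.0% of all genes.

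Of 20 measured genes of the MAPK cascade and of serum response factor and its cofactors, 14 had a negative and 6 a positive log2 difference, with a median of -0.29, and of -0.14 without Control 1. Both TCQA arrays lay below both controls for 7 of them and above for 2, against 13.6% and 16.0% of all genes, and 6 were lower and 0 higher at 2-fold alone. The largest differences were those of Mapk12, a p38 kinase abundant in muscle, at -1.95, and Map3k1, an activator of the JNK pathway, at -1.66, which without Control 1 were -0.088 and -0.27. Of 11 other basic leucine zipper partners, 5 had a negative and 6 a positive log2 difference. Their median was 0.050, and it was -0.17 without Control 1 and -0.038 when each array was centred on its median. Mafg, a small Maf protein, had -1.58 and Atf4, the effector of the integrated stress response, had -1.58, against -0.46 and -0.20 without Control 1. Both TCQA arrays lay below both controls for 3 of the partners and above for 0, against the same 13.6% and 16.0%, and 3 were lower and 0 higher at 2-fold alone.

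The 10 other dual specificity phosphatases, relatives of Dusp1, had 5 negative and 5 positive log2 differences, with a median of -0.14 and of 0.027 without Control 1. Dusp7 and Dusp16 had the largest, at -1.12 and -1.01, and without Control 1 they had -0.004 and 0.37. Of 20 genes described as AP-1 targets, 4 had a negative and 16 a positive log2 difference, with a median of 0.24 that was -0.047 without Control 1. Ccnd1, the cyclin that drives entry into the cell cycle, had log2 levels of 5.66 (Control 1), 3.91 (Control 2), 3.63 (TCQA 1) and 3.13 (TCQA 2). Both TCQA arrays lay below both controls, and the log2 difference of -1.40 (standard error 0.69) was -0.53 without Control 1. Cd44, the hyaluronan receptor, had -1.19, and 0.21 without Control 1. Both TCQA arrays lay below both controls for 1 of the 10 phosphatases and 1 of the 20 targets, against 13.6% of all genes, and above them for 1 and 4, against 16.0%. At 2-fold alone 2 phosphatases and 2 targets were lower and 0 higher.

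**Figure D5:**
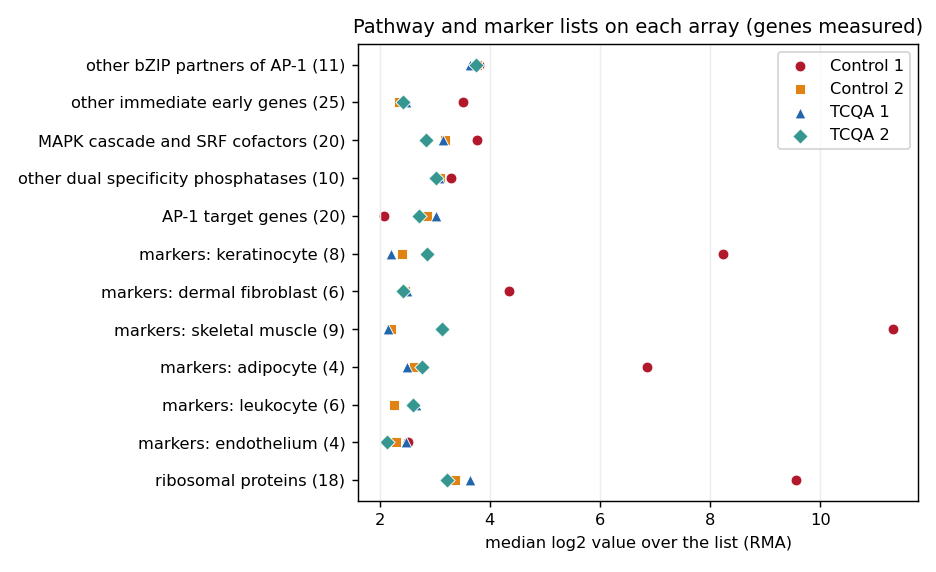
Median log2 level (x axis) on each of the 4 arrays of 5 pathway lists, 6 lists of cell type markers and the ribosomal proteins (rows, with the number of genes measured); each symbol is 1 array. The other immediate early genes have a median of 3.52 on Control 1 against 2.35 to 2.48 elsewhere, while the AP-1 targets have 2.07 there against 2.71 to 3.03.

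The genes with profiles nearest to those of Jun and Fos were found by the Euclidean distance over the 4 arrays between log2 levels centred on their own mean. For Jun with 1417409_PM_at these were Nfib at a distance of 0.066, Rpl23a at 0.068 and Gdi2 at 0.075, all with Control 1 as the only high array. For Jun with 1448694_PM_at they were Ankrd28 at 0.025, Lamb1 at 0.027 and Tuft1 at 0.033. For Fos they were Grb14 at 0.052, Tmem181b-ps at 0.10 and Efcab14 at 0.13, each highest on Control 1 and lowest on TCQA 2. The genes nearest to Jun were thus different with each probe set, and with 4 arrays such distances describe the arrays only.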

How the data were processed

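The values deposited by the authors are RMA log2 levels of 45141 probe sets on 4 Affymetrix mouse PM array strips, and are not centred per gene. Programs named in the submitters' processing notes are Transcriptome Analysis Console, RMA and Affymetrix Expression Console. It is unknown whether the arrays were normalized jointly, and scanner files were not used here. The 104 Affymetrix controls were left out. Symbols came from the platform annotation and were updated through RefSeq (GRCm38.p6), so that 28898 probe sets name 1 gene, 551 several and 15588 are unnamed here. Some genes of the pathway lists are not reported here.

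A linear model per probe set (limma 3.58.1 under R 4.3.3, with eBayes moderation) gave two-sided p-values with 2 residual degrees of freedom. Adjustment followed Benjamini-Hochberg over all 45037 probe sets, and the step was tested on simulated data. Without Control 1 the difference is the TCQA mean minus Control 2. Named genes are every probe set of the 10 genes, the 2 largest differences of each pathway list, and the 3 nearest profiles to each Jun probe set and to Fos. Krt1, Krt5, Krt10 and Krt14 were named after their values were seen. The genes and lists were chosen with earlier results of these data known. Promoters came from RefSeq. All 4 arrays were mapped, with 0 columns left over. Precision is limited by the number of arrays. Alternatives were a further quantile normalization, median centring, a brightness filter, a replicate block, an unmoderated analysis of variance, leaving out each array, and other choices of probe set.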

Additional observations from a re-analysis of the deposited data

How the results depend on the processing

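With an array left out, the count at an adjusted p under 0.05 in limma ranged from 0 to 8, that at 2-fold with an unadjusted p of at most 0.05 from 0 to 9, that of probe sets with both TCQA arrays below the controls from 3 to 9 and above from 1 to 4, and the median log2 difference of the 14 from -0.888 (without Control 2) to 0.010 (without Control 1). Leaving out an array can raise the counts below and above the controls but cannot lower them, since fewer arrays are compared. With an array left out, shares over all probe sets were not computed for these counts or for the 2-fold count. The counts therefore do not set the 14 probe sets apart from the others. By probe set the log2 difference ranged from -0.672 to 0.065 for Jun (1448694_PM_at), -1.105 to 0.121 for Junb and -4.032 to 0.019 for Jund (1449117_PM_at). The range was -0.164 to 0.547 for Fosb, -0.838 to 0.120 for Fosl2 (1422931_PM_at), -3.796 to 0.280 for Fosl2 (1437247_PM_at) and -5.345 to 0.001 for Dusp1. List medians ranged from -0.170 to 0.033 for the basic leucine zipper partners, -0.756 to 0.098 for the immediate early genes and -0.261 to 0.029 for the phosphatases. Quantile normalization gave 0.082 for Jun (1448694_PM_at) and 0.395 for the median of the partners, which was -0.038 after centring. A filter at the median brightness of 2.564 kept 11 of the 14 probe sets and gave a median of -1.317, 0 probe sets above the controls and 0.462 for the phosphatases. Of the 11, 4 passed only through Control 1, on which they are highest (Jun 1417409_PM_at, Fosl2 1437247_PM_at, Atf3 and Dusp1), so the filter itself lowers that median and it supports nothing. The cause of the other shifts was not tested. Probe sets below that brightness are limited most by the background.

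Control and TCQA arrays share replicate numbers only, and the deviations of same-numbered arrays correlated at -0.124. With the replicate block 1 of the 14 probe sets, that of Fos, passed 2-fold with an unadjusted p of at most 0.05, as did 281 of all, with 0 at an adjusted p under 0.05. The crossed pairing, chosen after seeing the data, gave 0 of the 14, 69 of all and 0.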
